A study of Homo sapiens with 4 samples.

Results

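The genes described here are 35 genes of the G2 and M phases of the cell cycle, a fixed list of symbols that was looked up in 4 gene tables of human CAL27 cells. All 35 were found once among the 29437 genes listed, and 34 were tested because their mean over the 4 libraries reached 1 FPKM (the count divided by gene length and by the total count of the library); PRC1 did not. CAL27 is an established line of oral squamous cell carcinoma. Polyadenylated RNA was sequenced from 2 negative control libraries and from 2 libraries of cells made to overexpress CCL20, a secreted chemokine, with a lentivirus, and cells were harvested after 48 hours. The labels give the same line, medium and plating for both groups; they state neither the construct in the control cells nor whether the overexpressing line was a clone or a pool. No label says whether replicates were separate cultures, so p-values measure only the spread between these libraries, which may be technical. The study compared the groups to find genes that change when CCL20 is overexpressed.

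Entry into mitosis is driven by the kinase CDK1 bound to B-type cyclins, and the kinases AURKA, AURKB and PLK1 then build the spindle and correct faulty attachments. The spindle checkpoint holds the anaphase-promoting complex, a ubiquitin ligase, in check until chromosomes are attached; CDC20 then activates it and the cyclins are destroyed. Most of these genes are transcribed mainly late in the cell cycle, under the transcription factor FOXM1 and the MuvB complex. Their messages are therefore used as a readout of how many cells of a carcinoma line are dividing. In bulk RNA, fewer dividing cells and less of a message in each dividing cell cannot be told apart.

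Total counts were between 13681862 and 17860695 per library. The scaling factors of edgeR's TMM method were 1.08 and 1.07 in the controls and 0.964 and 0.896 with overexpression. CCL20 itself, the check of the labels, had 188 and 202 counts in the controls and 372 and 303 with overexpression, a rise of 1.94-fold on the TMM scale (edgeR adjusted p = 0.0143) that became a log2 fold change of 0.06 ± 0.24 (SE) when corrected for mRNA length (edgeR adjusted p = 0.916). Squamous markers were present, with 7 of 8 at 1 FPKM or more and KRT5 the highest at a mean of 447 FPKM; their summed level was 693 to 723 FPKM in the controls and 663 to 805 FPKM with overexpression. Of 6 fibroblast markers 1 reached 1 FPKM (COL1A1, 2.72 FPKM), of 6 immune markers 2 did (CSF1R the higher, 2.28 FPKM) and of 4 endothelial markers 1 did (CDH5, 6.75 FPKM). Summed, these lists lay at 4.72 to 5.58, 3.79 to 4.18 and 8.23 to 8.81 FPKM in the controls and at 2.93 to 3.51, 3.03 to 3.86 and 5.10 to 5.27 FPKM with overexpression. PTPRC, PECAM1, VWF, KDR, DCN and COL3A1 averaged under 0.1 FPKM, and LYZ was not among the genes listed. The part of other cells in the results was not tested.

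Many promoters of these genes, though not all, share short motifs that the choice of genes did not use. The RefSeq promoter table (GRCh38.p14) matched 29 of the 35 genes; AURKA, BIRC5, FOXM1, TPX2, TTK and UBE2C were not matched. In the 250 bases before the gene start, searched on both strands, TTTGAA was found for 18 of the 29 genes and CCAAT for 25, and 16 had both. TTTGAA is the core of the cell cycle genes homology region (CHR), the element bound by MuvB, and CCAAT is the box bound by NF-Y. By entries (a gene can have several starts), TTTGAA was in 57.1% of 35 entries of these genes and in 13.3% of all 35116 entries, and CCAAT in 80.0% against 32.0%. The joint share was 48.6% against 4.69%. The entries compared with were not limited to tested coding genes or matched to these genes. The windows below, 120 bases before a start, are printed 5′ to 3′ on the gene's strand to show how the motifs lie in genes that fell (MKI67, ASPM), rose (AURKB) or did not pass the test (CDK1, CDC20) with CCL20 overexpression. A gene with several starts has several windows, and not all are printed. The printed windows of CDK1 and AURKB lie within the annotated span of the gene. The window of another CDK1 start (chr10:60778211-60778330) ends before that span and holds neither motif. Each match to TTTGAA or CCAAT, or to its reverse complement, is in capitals.
MKI67, lower (chr10:128126424-128126543, minus strand): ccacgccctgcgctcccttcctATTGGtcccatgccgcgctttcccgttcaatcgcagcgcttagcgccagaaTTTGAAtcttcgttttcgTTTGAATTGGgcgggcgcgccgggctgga
ASPM, lower (chr1:197146670-197146789, minus strand): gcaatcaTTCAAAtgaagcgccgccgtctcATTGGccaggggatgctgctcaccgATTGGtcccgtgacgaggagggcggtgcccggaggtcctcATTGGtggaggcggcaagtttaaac
AURKB, higher (chr17:8210250-8210369, minus strand): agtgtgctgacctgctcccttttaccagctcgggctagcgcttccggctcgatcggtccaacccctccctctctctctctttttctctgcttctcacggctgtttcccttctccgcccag
CDK1, not past the threshold (chr10:60778358-60778477, plus strand): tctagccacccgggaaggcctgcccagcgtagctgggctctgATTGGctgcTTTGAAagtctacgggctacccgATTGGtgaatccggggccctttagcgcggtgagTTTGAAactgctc
CDC20, not past the threshold (chr1:43358861-43358980, plus strand): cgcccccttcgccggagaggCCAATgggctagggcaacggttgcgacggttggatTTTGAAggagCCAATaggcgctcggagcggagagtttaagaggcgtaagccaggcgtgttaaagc
In MKI67 the second TTTGAA shares its final letter with a reversed CCAAT, and these 120 bases of AURKB hold neither motif. AURKB is among the 25 genes with CCAAT in the longer window, and CCNB2 and CENPA, which also rose, have both motifs. The 15 tested genes with both motifs held 2 that rose and 3 that fell, at a median of -0.16 on the log2 fold change scale, between -0.94 and 0.57. The 13 tested genes matched without both held 3 that rose and 3 that fell, with a median of -0.29. Over all tested genes 16.5% rose and 15.7% fell. Corrected for mRNA length, the medians were -0.05 with both motifs and -0.10 without both. A match is a description of these letters and not a bound site.

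With CCL20 overexpression, 7 of the 34 tested genes rose and 7 fell. UBE2C, NUSAP1, AURKB, CCNB1, BIRC5, CENPA and CCNB2 were higher, by 1.40- to 1.94-fold, and FOXM1, ASPM, TOP2A, BUB1B, MKI67, CENPE and CENPF were lower, by 1.43- to 1.95-fold. The called share of 41.2% stands beside a background of 32.2% of all 12168 tested genes, of which 16.5% were higher and 15.7% lower. The median log2 fold change of the 34 genes was -0.11, against 0.00188 for all tested genes. The control and overexpression libraries did not overlap in 26 of the 34 genes on the TMM scale (76.5%), beside 71.6% of all tested genes. A gene was called where edgeR's quasi-likelihood p, adjusted over all tested genes by the Benjamini-Hochberg method, was under 0.05. The adjusted p lay between 0.00564 and 0.0464 for the genes that rose and between 0.00596 and 0.0384 for those that fell. Fits without 1 library leave 1 in its group, and the number of the 34 called changed strongly with the library left out. The median log2 fold change of the 34 was -0.12 and -0.10 without control replicate 1 and 2. It was -0.20 and -0.000641 without overexpression replicate 1 and 2. All 14 called genes kept their sign in these fits. That was nearly fixed beforehand, because the groups of each of the 14 did not overlap on the TMM scale. The split depended on the scale: with TPM (counts per length, scaled to the same sum in each library) as the scale 0 rose and 15 fell by edgeR, with 1 and 19 at an unadjusted p under 0.05, and all tested genes split into 500 higher and 4516 lower. That scale moved the median of all tested genes by -0.49; relative to it the median of the 34 genes was -0.10, and CCNB2 alone of the 14 changed sign. With limma on log2(FPKM + 1) 2 rose and 9 fell, where all tested genes split into 1245 higher and 2608 lower.

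The direction followed the length of the mRNA. The genes that rose had mRNAs of 850 to 2630 nt and those that fell of 3475 to 12678 nt. Fold change and mRNA length had a Spearman correlation of -0.89 over the 34 genes and -0.73 over all 10572 tested coding genes; genes of one library share its depth and composition and are not replicates. Of the 4105 tested coding genes with mRNAs of 850 to 2630 nt, 33.7% were higher and 2.56% lower, with a median log2 fold change of 0.46. Of the 4288 with mRNAs of 3475 to 12678 nt, 2.31% were higher and 33.4% lower, with a median of -0.44. In the plot of fold change against mRNA length the G2/M genes lie along the band of the other coding genes.

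**Figure D1:**
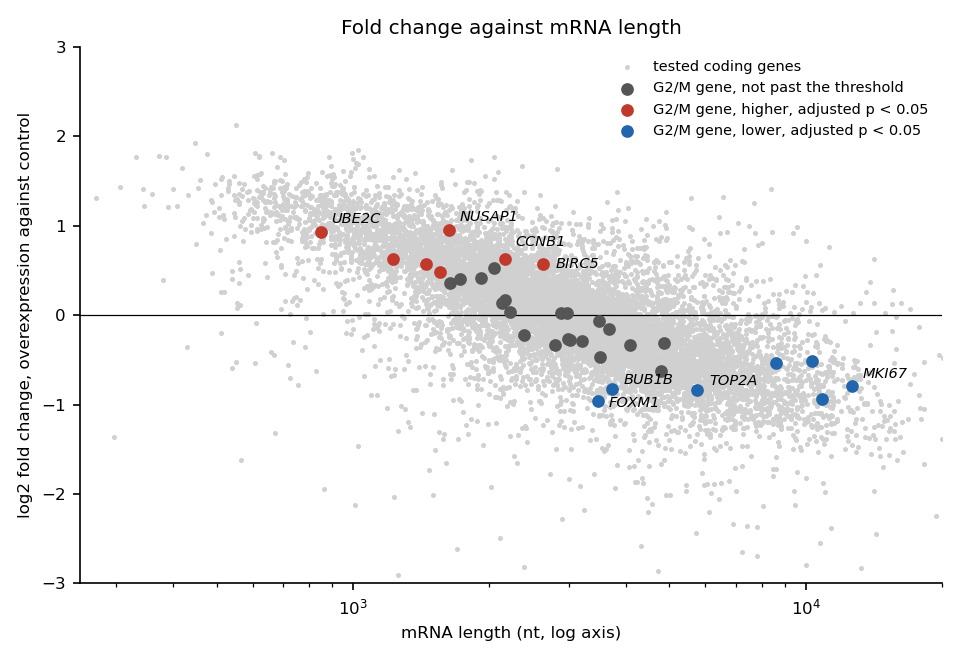
Log2 fold change (CCL20 overexpression against negative control, edgeR on the TMM scale) against mRNA length in nt on a log axis, with 1 point per tested coding gene in grey and the 34 tested G2/M genes in red (higher), blue (lower) or dark grey (not past the threshold). Genes that rose had mRNAs of at most 2630 nt and genes that fell of at least 3475 nt; 14 coding genes lie outside the drawn range.

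With a correction for mRNA length (a spline of mRNA length fitted in each library and used as an offset in edgeR, coding genes only), FOXM1 alone of the 34 was past the threshold, where 6.82% of the 10572 coding genes were called, 3.63% higher and 3.19% lower. By edgeR 0 of the 34 were higher, and at an unadjusted p under 0.05 there were 2 in each direction. The correlation with mRNA length over the 34 genes was then -0.16 (Spearman), and their median log2 fold change was -0.05 against 0.03 for all tested coding genes. Correcting at the same time for gene span and the GC content of the mRNA (the 3-factor correction), BIRC5 was higher and FOXM1, BUB1B, CCNA2, TOP2A, CDCA8 and BUB1 were lower, where 13.9% of coding genes were called higher and 11.1% lower. With exonic length, the length behind FPKM, as the covariate, FOXM1, BUB1B and CDCA8 were lower and 0 of the 34 were higher by edgeR (3 higher and 6 lower at an unadjusted p under 0.05), where 8.46% were called higher and 4.82% lower. Set against the 100 tested coding genes nearest in mRNA length and mean FPKM, 26 of the 34 genes had a log2 fold change below the median of those neighbours and 8 above it. The median difference was -0.18 (-0.099 against the genes nearest in length alone), and the range ran from -0.81 for FOXM1 to 0.47 for NUSAP1; 30 of the 34 lay within 0.5 of their neighbours. The median level of the 34 genes itself had an SD of 0.134 between replicates on the log2 scale. These differences are descriptions without a test.

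**Figure D2:**
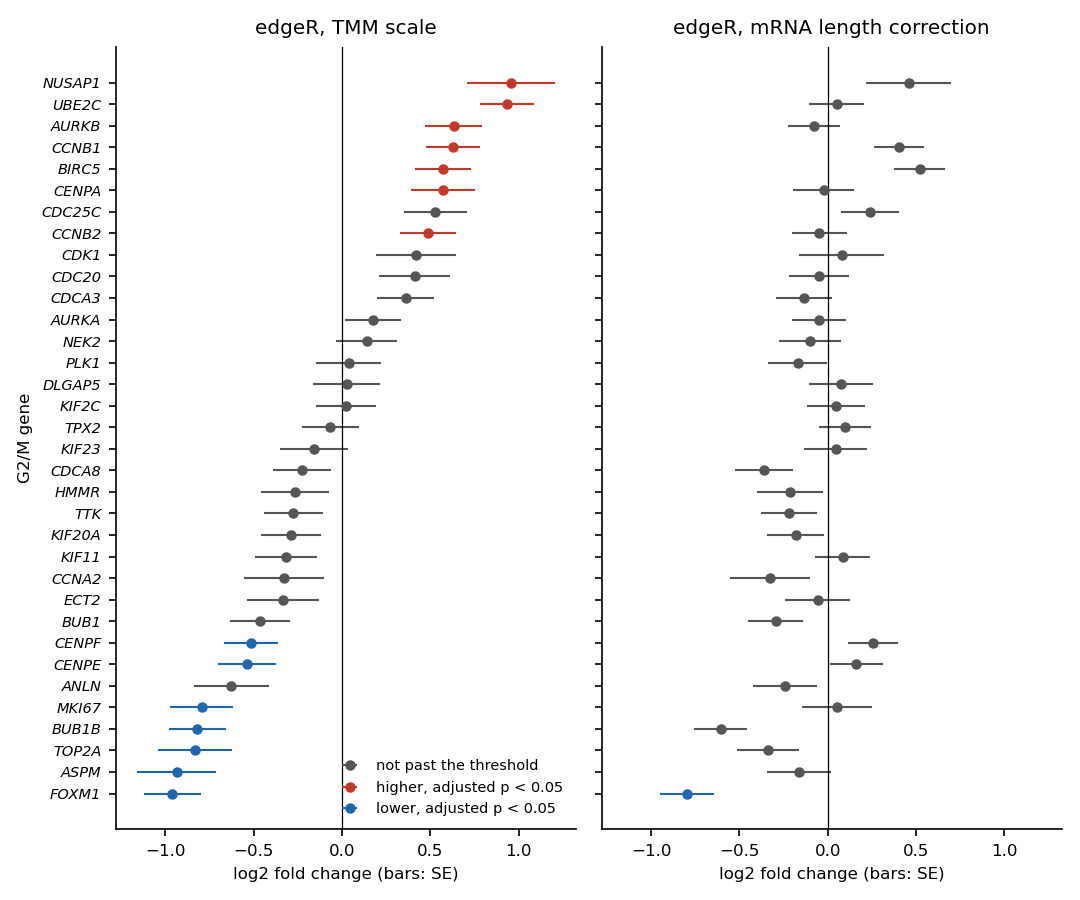
Log2 fold change of each of the 34 tested G2/M genes with its SE, from edgeR on the TMM scale (left) and after the mRNA length correction (right), ordered by the left panel; red is higher, blue is lower and grey is not past an adjusted p of 0.05. FOXM1 is the 1 gene coloured in the right panel, at -0.80.

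Among the regulators of mitotic entry, FOXM1 fell and the B-type cyclins rose. FOXM1 (ENSG00000111206; GRCh38 chromosome 12, 2857681 to 2877155, minus strand), a transcription factor of G2/M genes, was at 18.6 and 18.8 FPKM in the controls and at 8.36 and 8.34 FPKM with overexpression. Replicates lay close together and the groups did not overlap on the TMM scale, as in 71.6% of all tested genes. The fall was 1.95-fold on the TMM scale (-0.96 ± 0.16 as log2 fold change and SE, edgeR adjusted p = 0.00596); corrected for mRNA length it was -0.80 ± 0.15 and still called (edgeR adjusted p = 0.0240). Without control replicate 1 or 2 it was -0.97 and -0.95, and with the mRNA length correction as well it was -0.81 and -0.78. It was not called in any of these fits, each of which leaves 1 control library. Fold changes are on the TMM scale and are smaller for falls, and larger for rises, than ratios of FPKM, which are scaled by total count. None of the 100 coding genes nearest to FOXM1 in length and level had a lower log2 fold change; their median was -0.15. Exons of genes on the other strand, ITFG2 with the largest share, cover 15.9% of the exonic bases of FOXM1. ITFG2 had 131 and 271 counts in the controls and 125 and 146 with overexpression, against 1249 and 1649, and 629 and 689, for FOXM1; the part of shared reads was not tested.

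CCNB1, a cyclin that activates CDK1, was at 112 and 116 FPKM in the controls and at 158 and 147 FPKM with overexpression, a rise of 1.55-fold on the TMM scale (edgeR adjusted p = 0.0178). CCNB2, its close relative, was at 34.9 and 34.7 FPKM and at 44.6 and 40.1 FPKM, a rise of 1.40-fold (edgeR adjusted p = 0.0464). On the TMM scale groups did not overlap in 71.6% of all tested genes, and in both cyclins the overexpression libraries lay above the controls. With the mRNA length correction their log2 fold changes were 0.40 (SE 0.14) and -0.05 (SE 0.15), and neither was called (edgeR adjusted p = 0.133 and 0.884). CDK1, the kinase itself, was at 78.2 and 63.2 FPKM and at 102 and 63.0 FPKM, so the groups overlapped (log2 fold change 0.42, edgeR adjusted p = 0.178). CCNA2, the cyclin of S phase and early mitosis, was at 29.8 and 23.8 FPKM and at 22.9 and 14.3 FPKM (log2 fold change -0.33, edgeR adjusted p = 0.282). It was past the threshold, lower, with the 3-factor correction (log2 fold change -0.50, edgeR adjusted p = 0.0271). CDC25C, the phosphatase that removes the inhibitory marks from CDK1, had a log2 fold change of 0.53 (SE 0.18, edgeR adjusted p = 0.0548).

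None of the mitotic kinases AURKA, PLK1, NEK2 and TTK, or TPX2, which activates AURKA on the spindle, was past the edgeR threshold, and all 5 missed it with the mRNA length correction as well. Levels were high: AURKA was at 66.5 and 70.9 FPKM in the controls and 72.3 and 62.6 FPKM with overexpression, and TPX2 at 128 and 130 FPKM and at 120 and 94.3 FPKM. PLK1 was at 31.7 and 34.4 FPKM and at 26.4 and 32.2 FPKM. The log2 fold changes of the 5 genes ran from -0.28 for TTK to 0.18 for AURKA, each with an SE of 0.16 to 0.19, so changes of that size were not detectable in these libraries.

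Of the genes around the spindle checkpoint and the anaphase-promoting complex, UBE2C rose and BUB1B fell. UBE2C (ENSG00000175063; chromosome 20, 45812576 to 45816957, plus strand), the ubiquitin-conjugating enzyme of the complex, was at 190 and 181 FPKM in the controls and at 323 and 293 FPKM with overexpression, the highest level of the 35 genes. The rise was 1.91-fold (0.94 ± 0.15 as log2 fold change and SE, edgeR adjusted p = 0.00564). UBE2C has the shortest mRNA of the tested genes, 850 nt, and the 100 coding genes nearest in length and level had a median log2 fold change of 1.18. With the mRNA length correction its value was 0.05 (SE 0.16, edgeR adjusted p = 0.879). BUB1B (ENSG00000156970; chromosome 15, 40161023 to 40221136, plus strand), the checkpoint protein BubR1 that inhibits CDC20, was at 22.7 and 23.3 FPKM and at 12.3 and 10.4 FPKM. The groups did not overlap on the TMM scale, as in 71.6% of all tested genes. The fall of BUB1B was 1.77-fold (-0.82 ± 0.16 as log2 fold change and SE, edgeR adjusted p = 0.00916). With the mRNA length correction it was -0.61 (SE 0.15, edgeR adjusted p = 0.0529), and 3% of its 100 neighbours lay lower. With the 3-factor correction it was past the threshold (-0.59, edgeR adjusted p = 0.00388). Exons of other genes on the same strand, BUB1B-PAK6 with the largest share, cover 10.2% of the exonic bases of BUB1B. BUB1B-PAK6 had 5 and 3 counts in the controls and 0 and 0 with overexpression. The part of this overlap in the BUB1B count was not tested. BUB1, the partner kinase, was at 29.6 and 27.6 FPKM and at 20.1 and 16.0 FPKM (log2 fold change -0.46, edgeR adjusted p = 0.0641; with the 3-factor correction -0.33, edgeR adjusted p = 0.0305). CDC20, the activator of the complex, was at 161 and 176 FPKM and at 166 and 220 FPKM, overlapping on this scale though not on the TMM scale (log2 fold change 0.41, edgeR adjusted p = 0.143). CDCA3, which takes part in the destruction of the mitotic inhibitor WEE1, had a log2 fold change of 0.36 (edgeR adjusted p = 0.119).

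Of the 3 centromere and kinetochore genes, CENPA rose and CENPE and CENPF fell. CENPA, the histone H3 variant that marks centromeres, was at 16.3 and 13.9 FPKM in the controls and at 19.7 and 19.1 FPKM with overexpression, 1.48-fold higher (edgeR adjusted p = 0.0431). CENPE, a kinetochore motor, was at 9.23 and 9.03 FPKM and at 6.00 and 4.93 FPKM, 1.45-fold lower (edgeR adjusted p = 0.0384). CENPF, a large kinetochore and nuclear matrix protein, was at 30.3 and 29.5 FPKM and at 19.5 and 16.9 FPKM, 1.43-fold lower (edgeR adjusted p = 0.0367). In all 3 the groups did not overlap on the TMM scale, as in 71.6% of all tested genes. With the mRNA length correction they overlapped in CENPA but not in CENPE or CENPF. Their mRNAs are 1452, 8612 and 10307 nt long. With the mRNA length correction each changed sign, CENPA to -0.02, CENPE to 0.16 and CENPF to 0.25 on the log2 scale, and none was called (edgeR adjusted p = 0.953, 0.560 and 0.326).

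The chromosomal passenger complex corrects attachments and triggers cytokinesis, and its genes moved in different directions. AURKB, its kinase, was at 35.8 and 37.2 FPKM and at 49.4 and 48.6 FPKM, 1.55-fold higher (edgeR adjusted p = 0.0208). BIRC5, or survivin, was at 54.1 and 51.8 FPKM and at 68.0 and 68.6 FPKM, 1.49-fold higher (edgeR adjusted p = 0.0272). CDCA8, or borealin, was at 37.0 and 38.2 FPKM and at 30.9 and 25.1 FPKM, with a log2 fold change of -0.23 (edgeR adjusted p = 0.309). Their mRNAs are 1227, 2630 and 2386 nt long. BIRC5 was at 0.52 on the log2 scale when corrected for mRNA length (SE 0.14, edgeR adjusted p = 0.0731) and was past the threshold with the 3-factor correction (0.47, edgeR adjusted p = 0.00663). AURKB turned to -0.08 (SE 0.15, edgeR adjusted p = 0.794) with the mRNA length correction. CDCA8 was past the threshold, lower, with the 3-factor correction (-0.37, edgeR adjusted p = 0.0401) and with exonic length corrected (-0.74, edgeR adjusted p = 0.0335). INCENP, the scaffold of the complex, was not among the 35 genes but was on a list of other mitotic genes. It was at 29.6 and 28.5 FPKM and at 10.7 and 11.0 FPKM, 2.32-fold lower (edgeR adjusted p = 0.00433), and was still called when corrected for mRNA length (edgeR adjusted p = 0.0140).

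Among kinesins and spindle proteins, ASPM fell and NUSAP1 rose. ASPM, which organizes spindle poles, was at 17.4 and 15.6 FPKM in the controls and at 9.41 and 5.66 FPKM with overexpression, 1.91-fold lower (edgeR adjusted p = 0.0174). Its mRNA is 10887 nt long, and its log2 fold change with the mRNA length correction was -0.16 (SE 0.18, edgeR adjusted p = 0.635). NUSAP1, a microtubule-bundling protein, was at 1.47 and 1.66 FPKM and at 2.65 and 2.64 FPKM, 1.94-fold higher (edgeR adjusted p = 0.0229), and stood at 0.46 (SE 0.24) on the log2 scale when corrected for mRNA length (edgeR adjusted p = 0.292). The level of NUSAP1 rests on 58 and 85 counts in the controls and 117 and 128 with overexpression; leaving out NUSAP1 and PRC1, the means of the other 33 genes were at least 7.30 FPKM. Exons of other genes on the same strand, AC087721.2 with the largest share, cover 62.2% of the exonic bases of NUSAP1. The part of such overlap in the NUSAP1 count was not tested. KIF11, KIF20A, KIF2C, DLGAP5 and HMMR, which are kinesins and spindle-associated proteins, had log2 fold changes from -0.32 (KIF11) to 0.03 (DLGAP5), and none was past the edgeR threshold.

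The genes of the central spindle and of cytokinesis were not past the threshold where they could be tested. ANLN, anillin of the contractile ring, was at 132 and 122 FPKM in the controls and at 88.8 and 54.9 FPKM with overexpression (log2 fold change -0.63, SE 0.21, edgeR adjusted p = 0.0526). ECT2, which activates RhoA at the cleavage site, was at 54.9 and 51.2 FPKM and at 44.8 and 28.7 FPKM (-0.33, edgeR adjusted p = 0.230), and KIF23, a motor of the central spindle, at 29.3 and 29.2 FPKM and at 27.4 and 18.4 FPKM (-0.16, edgeR adjusted p = 0.548). In ANLN and ECT2 both overexpression libraries lay below both controls on the TMM scale, and the difference between the overexpression replicates was large. On that scale the groups did not overlap in 71.6% of all tested genes. PRC1, which bundles the microtubules of the central spindle, had 23 and 26 counts in the controls and 4 and 5 with overexpression, and stayed under the 1 FPKM minimum. With edgeR's own filter, which kept it, it was 4.58-fold lower (log2 fold change -2.19, SE 0.59, edgeR adjusted p = 0.0266). That fit called 27.2% of its genes, and PRC1 was not in the fit corrected for mRNA length. Exons of another gene on the same strand, AC068831.7, overlap PRC1, and 57.6% of the exonic bases of PRC1 are covered by other genes on that strand. AC068831.7 had 103 and 132 counts in the controls and 41 and 36 with overexpression. The part of this overlap in the PRC1 count was not tested.

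MKI67 and TOP2A, whose products coat mitotic chromosomes and resolve DNA tangles and which pathologists use as proliferation markers, both fell. MKI67 was at 40.4 and 39.4 FPKM in the controls and at 18.0 and 21.7 FPKM with overexpression, 1.73-fold lower (edgeR adjusted p = 0.0140). TOP2A was at 130 and 132 FPKM and at 79.9 and 49.2 FPKM, 1.78-fold lower (edgeR adjusted p = 0.0208). The groups did not overlap in either gene on the TMM scale, as in 71.6% of all tested genes. With the mRNA length correction they overlapped in MKI67 but not in TOP2A. The mRNA of MKI67, 12678 nt, is the longest of the 35, and its log2 fold change with the mRNA length correction was 0.05 (SE 0.20, edgeR adjusted p = 0.903). TOP2A, with 5758 nt, was at -0.34 (SE 0.18, edgeR adjusted p = 0.292) with that correction and at -0.45 (edgeR adjusted p = 0.0163) with the 3-factor correction. The plot of levels in each library shows the 14 called genes together.

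**Figure D3:**
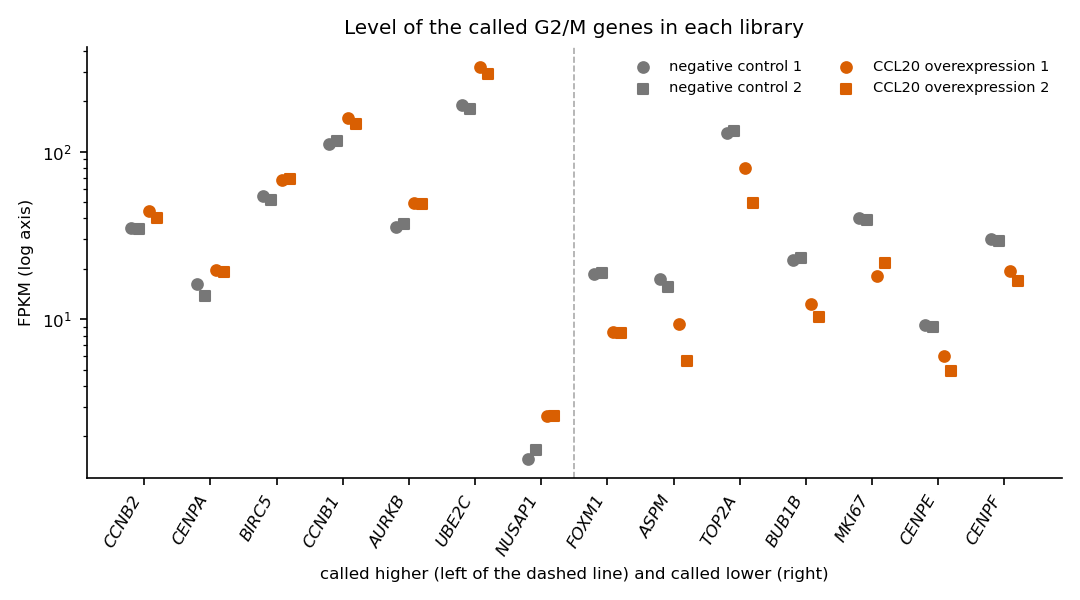
FPKM on a log axis of the 7 G2/M genes called higher (left of the dashed line) and the 7 called lower (right) in each of the 4 libraries; grey is the negative control, orange is CCL20 overexpression, circles are replicate 1 and squares replicate 2. For each of the 14 genes both orange points lie on the same side of both grey points. The genes were picked by a test on these same libraries. On the TMM scale the groups did not overlap in 71.6% of all tested genes.

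The overexpression replicates differed from each other more than the controls did. The SD of the log2 difference between replicates over the 34 genes was 0.31 in the overexpression pair and 0.12 in the control pair; over all tested coding genes it was 0.44 and 0.21. In overexpression replicate 2, 23 of the 34 genes were lower than in replicate 1 on the TMM scale and 11 higher. The differences ran from -0.63 to 0.51 on the log2 scale, with ASPM, CDK1, TOP2A and ANLN at the low end and CDC20, PLK1 and MKI67 at the high end. They followed the GC content of the mRNA, with a Spearman correlation of 0.77 over the 34 genes and 0.75 over tested coding genes. In the control pair these were 0.38 and 0.38. CDK1, with 35.6% G and C, and CDC20, with 57.4%, lay near the ends of the range, as the plot of replicate differences against GC content shows. Whether GC content had a part in the comparison of the groups was not tested beyond the correction above.

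**Figure D4:**
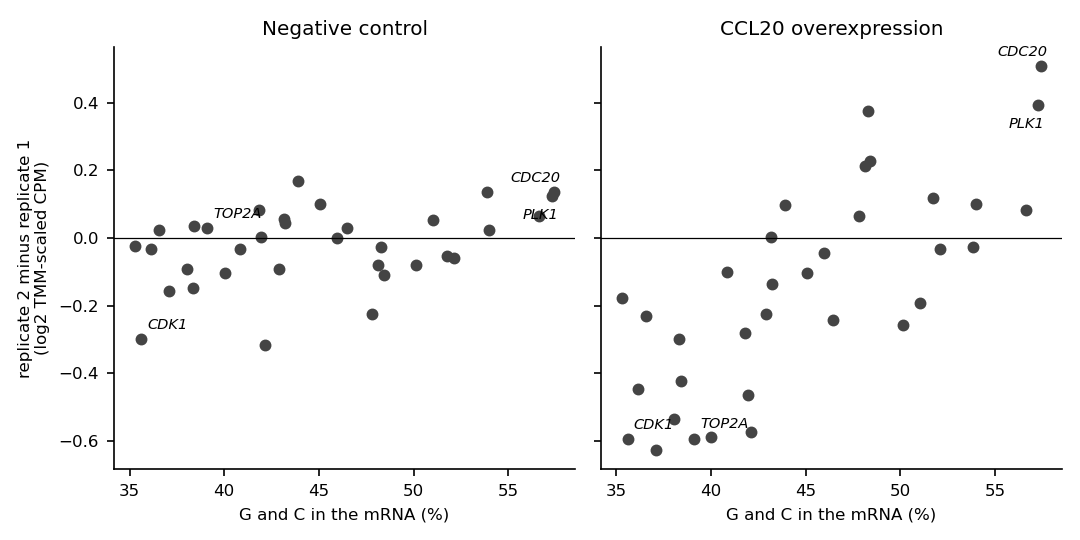
Difference between replicate 2 and replicate 1 in log2 TMM-scaled CPM (counts scaled to the library total) for each of the 34 tested G2/M genes, against the percentage of G and C in the mRNA, in the negative control (left) and with CCL20 overexpression (right). Points rise from left to right with overexpression (Spearman 0.77) and spread less in the control.

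Other mitotic genes, 121 on 5 lists, moved in both directions: of 118 tested, 20 were higher and 26 lower, at a median log2 fold change of -0.09. The background over all tested genes was 16.5% higher and 15.7% lower. With the mRNA length correction 4 were higher and 4 lower, where 6.82% of all coding genes were called. These were UBE2S, ANAPC16, MAD2L1 and BUB3 (higher) and INCENP, GTSE1, TUBA1B and STAG1 (lower); UBE2S, ANAPC16, MAD2L1, BUB3 and TUBA1B were named after their values were seen.

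Subunits and partners of the anaphase-promoting complex were higher in 7 of 16 tested genes and lower in 1. Over all tested genes 16.5% were higher and 15.7% lower. The median mRNA length of this list was 2590 nt. Of all coding genes with mRNAs of 850 to 2630 nt, 33.7% were higher and 2.56% lower. With the mRNA length correction 2 of the list were higher and 0 lower by edgeR, beside 3.63% and 3.19% of coding genes. ANAPC11, its RING subunit, was at 22.6 ± 0.709 FPKM in the controls and 54.3 ± 8.76 FPKM with overexpression (SD, n = 2 each) and rose 2.78-fold, and CDC26, a small structural subunit, rose 2.45-fold. ANAPC1, the largest subunit, was at 6.42 ± 0.303 and 2.89 ± 0.440 FPKM, a fall of 1.93-fold. The mRNAs of the 3 genes are 668, 872 and 8262 nt long, and corrected for that length none was called (edgeR adjusted p = 0.0929, 0.263 and 0.326). UBE2S, which extends the ubiquitin chains that UBE2C starts, has an mRNA of 2548 nt; its level was 150 ± 4.17 and 299 ± 69.6 FPKM, a rise of 2.30-fold, and it was called with the correction too (1.12 on the log2 scale, edgeR adjusted p = 0.0165).

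Cohesin and condensin genes, which hold and compact sister chromatids, were lower in 13 of 23 tested genes and higher in 1. Beside these stand 15.7% lower and 16.5% higher over all tested genes. STAG1, a cohesin subunit, was at 6.89 ± 0.177 and 2.39 ± 0.819 FPKM, 2.52-fold lower, and was called in the corrected fit as well (-0.81 on the log2 scale, edgeR adjusted p = 0.0483). NIPBL, the cohesin loader, fell 1.92-fold, and PTTG1, or securin, rose 2.33-fold; corrected, neither was called (edgeR adjusted p = 0.539 and 0.365). The median mRNA length of this list was 5061 nt, and its median log2 fold change was -0.61 without and -0.09 with the correction. The correction left 1 of the 23 lower and 0 higher by edgeR, beside 3.19% and 3.63% of coding genes. Of all coding genes with mRNAs of 3475 to 12678 nt, 33.4% were lower and 2.31% higher.

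Of 33 tested kinetochore and further checkpoint genes, 7 rose and 4 fell, with a median log2 fold change of 0.23. Over all tested genes 16.5% rose and 15.7% fell. CENPW and PMF1, small kinetochore proteins, rose 2.13- and 2.52-fold, and KNL1, the scaffold that recruits BUB1 and BUB1B, was 2.07-fold lower, at 12.4 ± 0.114 and 5.22 ± 1.66 FPKM (SD, n = 2 each). Corrected for mRNA length these 3 were not called (edgeR adjusted p = 0.599, 0.143 and 0.306). MAD2L1 and BUB3, the partners of CDC20 and of BUB1 in the checkpoint, were called higher in the corrected fit, at 0.88 and 0.87 on the log2 scale (edgeR adjusted p = 0.0240 and 0.0157), and not in the uncorrected fit, at 0.41 and 0.21 (edgeR adjusted p = 0.142 and 0.357). The mRNAs of MAD2L1 and BUB3 on which the correction rests are 5468 and 7828 nt long.

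Among 22 tested regulators of mitotic entry and exit, 3 rose and 3 fell. CKS1B and CKS2, small partners of CDK1, rose 2.03- and 1.92-fold, and with the mRNA length correction stood at 0.10 and -0.04 on the log2 scale. GTSE1, a microtubule-binding protein of G2, was 1.86-fold lower, at 20.6 ± 0.718 and 9.64 ± 0.476 FPKM (SD, n = 2 each), and was called after the correction (-0.81 on the log2 scale, edgeR adjusted p = 0.0211). RBL2, a pocket protein of the DREAM repressor complex, fell 2.51-fold and was not past the threshold with the correction (-0.93, edgeR adjusted p = 0.0780). Of 24 other spindle, centrosome and cytokinesis genes, 2 were higher and 5 lower. For both lists the background over all tested genes was 16.5% higher and 15.7% lower. TUBB4B and TUBB, beta-tubulins, rose 1.42- and 1.41-fold, and CIT, a kinase of cytokinesis, and CKAP5, a microtubule polymerase, fell 2.07- and 1.63-fold; corrected, none of these 4 was called (edgeR adjusted p = 0.985, 0.0914, 0.203 and 0.758). Tubulin genes have near-identical copies, so their single values are uncertain.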

How the data were processed

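RNA of 4 CAL27 libraries was analysed from per-library gene tables. Per the file headers each deposited table gives a count and an FPKM per gene; HISAT2 (version not given), HTSeq 0.13.5 and GRCh38 are named in the submitters' processing notes, while the strand setting and annotation were not stated. The deposited FPKM divides the count by gene length and the library's total count. All 29437 IDs and names matched GENCODE 29, from which lengths, GC content, overlaps and positions were taken. Genes with a mean of at least 1 FPKM were tested on counts with edgeR 4.0.16 (R 4.3.3; TMM, quasi-likelihood, Benjamini-Hochberg adjustment); length corrections were natural splines with 5 degrees of freedom, used as offsets. Alternatives used DESeq2 1.42.0, limma 3.58.1 and other filters, scales and replicates. The fit was also run on simulated counts, with and without a trend of mRNA length. The simulated libraries had the same level of noise and no trend of GC content, unlike these libraries. No result here rests on them. The 35 members and the other lists were chosen with earlier results of these data known. Named genes were all 35 and, in each other list, the 2 of smallest p called in each direction. The 2 replicates a group limit the precision, and for PRC1 and NUSAP1 so do low counts.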

Additional observations from a re-analysis of the deposited data

How the results depend on the processing

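Called genes numbered 3915, and 1404 with exonic length corrected, 721 with mRNA length corrected, 2066 with the replicate block and mRNA length correction together, and 1320 at an adjusted p of 0.01. Of the G2/M genes, 7 were higher; with TPM, limma (pseudocount 1 and 0.1), a minimum of 5 FPKM, exonic length, mRNA length, the 3-factor correction, block with mRNA length, and an adjusted p of 0.01 they were 0, 2, 1, 4, 0, 0, 1, 1 and 1. The 7 lower became 15 with TPM, 3 with exonic length, 1 with mRNA length, 2 with block and mRNA length, and 2 at 0.01. The median of -0.11 became -0.59 (TPM), -0.32 and -0.33 (limma), and -0.26 (5 FPKM). Leaving out 1 library gave 650 to 7579 called genes, 0 to 11 G2/M genes higher, 0 to 16 lower and medians from -0.20 to -0.000641. With the mRNA length correction as well (chosen after seeing the data), leaving out control replicate 1 or 2 gave 133 and 179 called genes and 0 G2/M genes (edgeR; 1 at an unadjusted p under 0.05 each), and leaving out overexpression replicate 1 or 2 gave 4 higher and 13 lower, and 4 and 4, where 44.9% and 36.1% of coding genes were called; medians reached 0.041. The cause of these shifts was not tested. Signs reversed for CCNB2 (TPM -0.00181, mRNA length -0.048, 3-factor -0.058, block with length -0.052), CENPA (exonic -0.087, mRNA length -0.024, block with length -0.020), CENPE (0.16, 0.17 and 0.16 with mRNA length, 3-factor, and block with length), CENPF (exonic 0.030, mRNA length 0.25, 3-factor 0.20, block with length 0.25), AURKB (-0.078, -0.096 and -0.079) and MKI67 (mRNA length 0.053, block with length 0.027). The replicate block alone called 5758 genes, 8 G2/M genes higher and 9 lower; replicates share only a number, and same-numbered deviations correlated at 0.27. Other size factors, the DESeq2 test, no filter and edgeR's filter kept the G2/M counts within 1.5 times. The 2 libraries per group limit the precision, and NUSAP1 and PRC1 also had few counts.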
